A study of Mus musculus with 12 samples.

Results

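The high mobility group (HMG) proteins are small, abundant, non-histone proteins that bend DNA or bind nucleosomes, and 8 mouse genes that encode them are described here across all libraries of the study. They were the entries named Hmgb1, Hmgb2, Hmgb3, Hmga1, Hmga2, Hmgn1, Hmgn2 and Hmgn3 among the 48709 genes listed in each deposited table, and all 8 were found. The group was chosen by the RPKM of Hmgb3 (a read count divided by gene length and by library depth), which was lower in all 3 libraries of cells given miR499, so the differences of these 8 genes with miR499 are given as descriptions without a test. That choice did not use differences with miR184, which were tested, although earlier results of these data were known when the genes were listed.

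Wild-type mouse hematopoietic stem and progenitor cells (HSPC), sorted from bone marrow, received miR184 (3 libraries), miR499 (3 libraries) or a control miRNA, labelled control miR (6 libraries). RNA was taken 2 days after transfection and sequenced. The sources used here state neither age, sex and strain nor the number of animals. One deposited table holds miR184 with controls 1 to 3 and the other holds miR499 with controls 4 to 6, and each miRNA was compared within its table. No label ties replicates to separate animals or cultures, so a p-value speaks only of how these samples spread, and that spread may be technical.

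The 3 HMG families differ in how they hold chromatin. HMGB proteins carry paired HMG boxes, which bind the minor groove and bend DNA, and an acidic tail; Hmgb3 is the member linked to primitive hematopoietic cells, where it has been tied to the balance of self-renewal and differentiation. HMGA proteins bind AT-rich DNA through short AT hooks, and Hmga2 is a known target of let-7 miRNAs. HMGN proteins bind the nucleosome itself and counteract linker histones.

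A miRNA recognises a transcript mainly through its seed, bases 2 to 8 counted from its 5′ end, so the sequences of the transfected miRNAs are shown with the seed in capitals. The labels do not say which arm was used; the arms shown are those generally taken as the active strand. Sequences are those of RefSeq on GRCm38.p6, and miR-499-5p lies at chr2:155622893-155622913 on the plus strand and miR-184-3p at chr9:89802263-89802284 on the minus strand.
mmu-miR-499-5p: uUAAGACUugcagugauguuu
mmu-miR-184-3p: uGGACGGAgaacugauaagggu

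Hmgb3 held no seed match to either miRNA. The search covered the sense strand of the longest annotated 3′ UTR of each gene (GENCODE M21, mm10), which is 872 bases long for Hmgb3, for AGTCTTAA, AGTCTTA or GTCTTAA (miR-499-5p) and TCCGTCCA, TCCGTCC or CCGTCCA (miR-184-3p), where an 8-base match was counted once. In all 5 annotated coding transcripts of Hmgb3, read from end to end, neither arm of miR-499 nor of miR-184 had a match. A match to miR-499-5p was found in 3 of the 8 genes, Hmgb1, Hmgb2 and Hmgn3, beside 15.3% of 20404 genes with a 3′ UTR. None of the 8 had a match to miR-184-3p in that UTR, beside 3.94% of genes, although both annotated coding transcripts of Hmga2, read from end to end, held one. Of the other arms, miR-499-3p had a match in 3 of the 8 (Hmgb2, Hmga1 and Hmgn3), beside 18.1% of genes. The arm miR-184-5p had a match in 2 of the 8 (Hmgb1 and Hmga2), beside 11.3%. The 3 stretches of 30 bases that hold the miR-499-5p matches are shown, since they separate the genes with a match from Hmgb3; the match is in capitals and each is written 5′ to 3′ along the transcript.
Hmgb2, chr8:57514916-57514945, plus strand: cttagcttataAGTCTTAgcttgtaccaaa
Hmgb1, chr5:149046862-149046891, minus strand: aagcgaggttgGTCTTAAagattgcacgtg
Hmgn3, chr9:83110936-83110965, minus strand: ccgaatcagtGTCTTAAgaaactgctcaac

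The match in Hmgb2 pairs with the whole seed, whereas those in Hmgb1 and Hmgn3 pair with bases 2 to 7 followed by an A. Counting whole-seed matches only, Hmgb2 was the single gene of the 8, beside 9.49% of all genes. In Hmgb2 the match was present in 1 of 2 annotated coding transcripts, in Hmgb1 in 1 of 7 and in Hmgn3 in 1 of 4. A match describes letters and is not a site shown to act, and its absence says nothing about the miRNA outside the sequence searched.

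One library, miR499 3, was unlike the rest of its table, and this bears on most values below. The mean correlation of its log2 values was 0.945 within its table, where the other 5 libraries had 0.980 to 0.985. Across tables, with the miR184 libraries and their controls, it was 0.959, where those 5 had 0.892 to 0.914. Of 9566 genes tested in both tables, 34.0% had a miR499 3 value inside the range of the 6 libraries of the miR184 table and 22.0% inside the range of the other 5 libraries of its own. For the HMG genes these counts were 6 of 8 and 0 of 8. Kit, the stem cell factor receptor that marks HSPC, was 14.1, 10.7 and 34.3 RPKM in miR499 1 to 3, against 8.17 to 9.24 in controls 4 to 6, and 46.9 to 57.1 in the miR184 table. Cd34, another of the HSPC markers, was 60.1, 53.6 and 91.1 RPKM in miR499 1 to 3, against 82.4 to 85.7 in controls 4 to 6. Thus Cd34 was below these controls in miR499 1 and 2, where Kit was above them. Mpo, a granule enzyme of myeloid progenitors, was 1167, 1195 and 3992 RPKM in miR499 1 to 3, against 1664 to 2051 in controls 4 to 6. None of the 13 HSPC markers examined was at 0 throughout a table. Their summed level was 508 to 536 RPKM with miR499, against 562 to 635 in controls 4 to 6. Most single markers did not follow the sum: of 11 tested, 8 were higher and 3 lower with miR499. Their median log2 difference was 0.135, against -0.0072 for all tested genes. Without miR499 3, 7 were higher and 4 lower. The summed level of 14 neutrophil markers, Mpo among them, was highest in miR499 3, at 10726 RPKM, against 6626 to 7971 in controls 4 to 6. Single neutrophil markers were split: of 11 tested, 6 were higher and 5 lower with miR499. Without miR499 3, 5 were higher and 6 lower. Ribosomal RNA entry Rn18s-rs5 was 43.6 to 114 RPKM with miR499, highest in miR499 3, and 26.4 to 31.0 in controls 4 to 6. Library totals recovered from the RPKM steps ran from 31990355 to 46601798 reads. Mir184 and Mir499 were listed at 0 in all 12 libraries, so the transfected miRNAs offered no check of the labels. Whether the library labelled miR499 3 holds cells given miR499, or was handled with another set of libraries, was not tested, and each mean and log2 difference with miR499 over 3 libraries carries that limit. The parts that cell make-up, residual ribosomal RNA and the standing of miR499 3 play in the HMG values were not tested.

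The HMG genes spanned a wide range of abundance, with Hmgn2 highest and Hmga2 lowest in both tables. In controls 4 to 6 the levels, per length, were 1178 ± 19.1 RPKM for Hmgn2, 661 ± 21.1 for Hmgb2, 450.3 ± 15.4 for Hmgb1, 157 ± 6.58 for Hmgb3, 89.4 ± 1.07 for Hmgn1, 69.0 ± 2.65 for Hmga1, 30.2 ± 2.03 for Hmgn3 and 1.17 ± 0.112 for Hmga2 (SD, n = 3). No neighbours in this order overlapped in their 3 control values, and the same was true in controls 1 to 3, where Hmga1 ranked above Hmgb3. Hmgn2 was the gene of rank 56 of all genes in controls 4 to 6 and of rank 64 in controls 1 to 3.

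Set side by side, 7 of the 8 genes were higher in controls 4 to 6 than in controls 1 to 3 and Hmga1 was lower. The ratio of means, controls 4 to 6 over controls 1 to 3, was 1.54 for Hmgb3, 1.78 for Hmgb1, 1.77 for Hmgb2, 1.55 for Hmgn1, 1.91 for Hmgn2, 1.93 for Hmgn3, 1.74 for Hmga2 and 0.515 for Hmga1. The tables may have been normalised separately, and only controls 4 to 6 carry an extra mark, in their descriptions and column headers. These levels were thus not tested, and table and handling cannot be told apart. Libraries miR499 1 to 3 lack the mark, whose meaning is not stated. In each difference between miR499 and controls 4 to 6, the miRNA and whatever the mark stands for cannot be told apart.

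**Figure D1:**
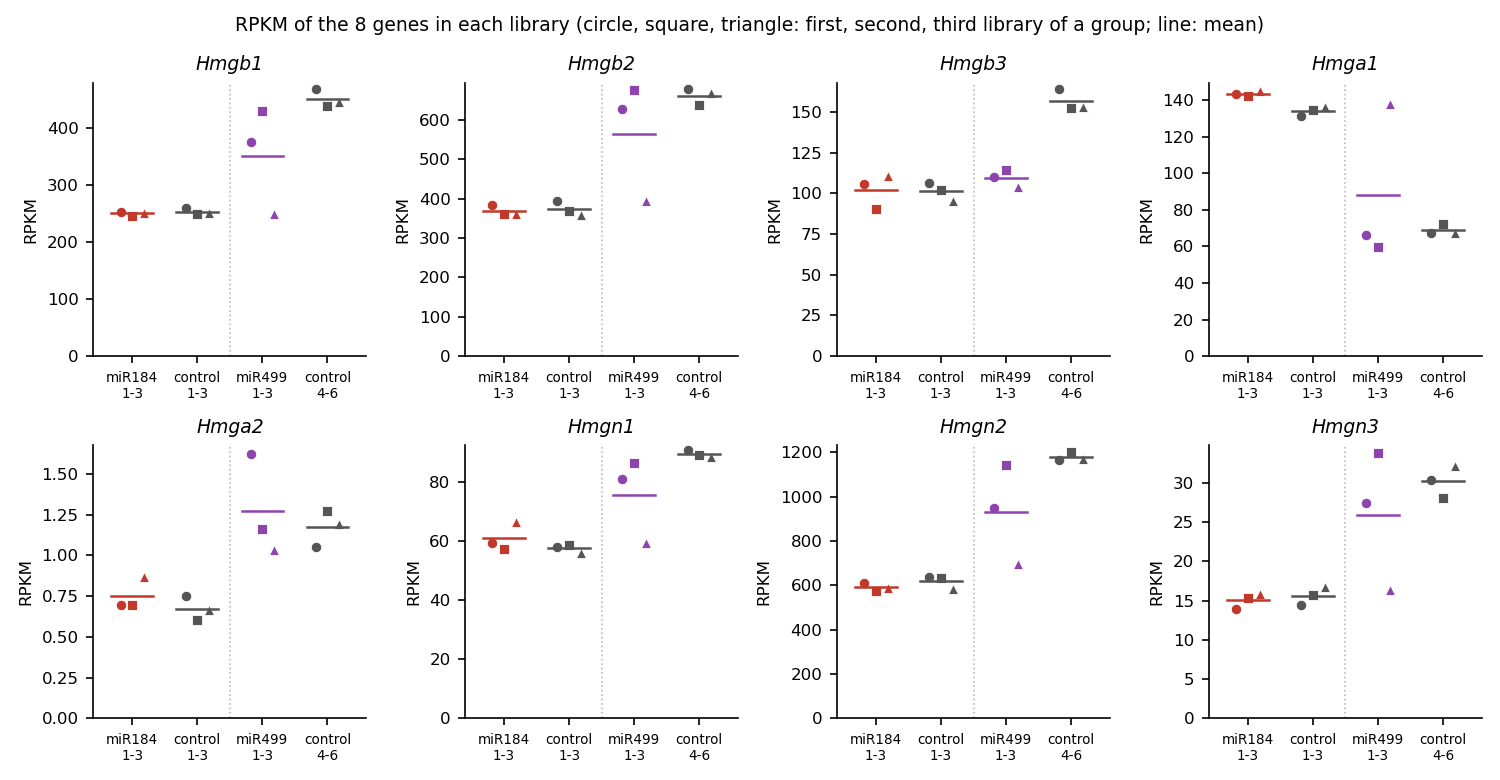
RPKM (y axis, from 0) of each of the 8 HMG genes in the 12 libraries, grouped along the x axis as miR184, controls 1 to 3, miR499 and controls 4 to 6, with a dotted line between the tables. Circles, squares and triangles are the libraries of a group in the order of their numbers and lines are means; the triangle of miR499 lies at the level of the miR184 table for Hmgb1, Hmgb2, Hmgb3, Hmga1, Hmgn1 and Hmgn3.

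Hmgb3 (ENSMUSG00000015217.11, chromosome X, 71555918 to 71560676, plus strand, mm10) was the only HMG gene of the 8 whose 3 miR499 libraries lay close together and below the controls. It stood at 110.0, 115 and 104 RPKM in miR499 1 to 3, against 164, 153 and 153 RPKM in controls 4 to 6. The groups did not overlap, and the highest miR499 value was 73.1% of the control mean. The means were 109.6 ± 5.22 RPKM with miR499 and 157 ± 6.58 in controls (SD, n = 3 each). The difference in log2(RPKM + 1), miR499 minus controls, was -0.51 ± 0.11 (SE), and it ran from -0.54 to -0.48 when any 1 library was left out. These are the values that led to the choice of the gene. In the miR184 table Hmgb3 lay between 90.3 and 111 RPKM, a range that holds miR499 1 at 110.0 and miR499 3 at 104.

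Hmgb1 and Hmgb2, the other HMGB genes, varied more between miR499 libraries than Hmgb3 did. Hmgb1 encodes an abundant DNA-bending protein that also acts as an alarm signal outside cells. It stood at 375, 430.0 and 249 RPKM in miR499 1 to 3, against 468, 438 and 446 in controls 4 to 6, so that the groups did not overlap although miR499 2 was 95.5% of the control mean. Hmgb2, which is high in dividing cells, stood at 628, 675 and 393 RPKM with miR499, against 678, 638 and 669 in controls, so that miR499 2 lay within the controls, miR499 1 just below them and miR499 3 far below. The log2 differences were -0.39 ± 0.22 for Hmgb1 and -0.27 ± 0.23 for Hmgb2 (SE). Without miR499 3 they were -0.16 ± 0.08 and -0.02 ± 0.08, while that of Hmgb3 was -0.48 ± 0.07. In bulk RNA, fewer cells of a type and less RNA per cell cannot be told apart.

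The HMGN genes followed a like order of libraries. Hmgn2, a nucleosome-binding protein gene, stood at 951, 1142 and 698 RPKM in miR499 1 to 3, against 1165, 1200.1 and 1169 in controls 4 to 6. Hmgn1 stood at 80.8, 86.2 and 59.4 RPKM with miR499, against 90.6, 89.1 and 88.5 in controls. In both genes all 3 miR499 values lay below all controls, with miR499 3 lowest and miR499 2 closest to them. Hmgn3 stood at 27.4, 33.8 and 16.3 RPKM with miR499, against 30.3, 28.1 and 32.1 in controls, with miR499 2 above and miR499 3 below all 3 controls. Log2 differences were -0.37 ± 0.22 for Hmgn2, -0.26 ± 0.16 for Hmgn1 and -0.27 ± 0.25 for Hmgn3 (SE), and -0.18 ± 0.10, -0.10 ± 0.07 and 0.01 ± 0.10 without miR499 3. Hmgn5, a further family member outside the 8, stood at 70.9, 68.6 and 40.1 RPKM with miR499, against 66.6, 59.6 and 61.4 in controls.

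Hmga1, the AT-hook gene active in HSPC here, showed opposite positions among the miR499 libraries. It stood at 66.2, 59.8 and 138 RPKM in miR499 1 to 3, against 67.5, 72.1 and 67.5 in controls 4 to 6. Libraries miR499 1 and 2 were below all controls, and miR499 3 was above them all. The log2 difference was 0.24 ± 0.30 with all libraries and -0.13 ± 0.08 without miR499 3 (SE), so the sign rested on that library. AI413582, a protein-coding gene on the opposite strand that shares 102 exon bases with Hmga1, stood at 95.4, 104 and 46.7 RPKM with miR499, against 96.6 to 99.7 in controls; the use of strand is not given, so reads in the shared bases cannot be assigned. Hmga2, the fetal HMGA gene, was low throughout, at 1.62, 1.16 and 1.04 RPKM with miR499, against 1.05 to 1.27 in controls, and the groups overlapped.

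Counted together, 4 of the 8 genes (Hmgb1, Hmgb3, Hmgn1 and Hmgn2) had all 3 miR499 libraries below all 3 controls and 0 had them above. The share among all 9815 tested genes was 12.8% below and 11.4% above, or 24.2% not overlapping. The median log2 difference of the 8 genes was -0.27, against -0.0072 for all tested genes and -0.22 for the 1386 genes with a mean of at least 50 RPKM. With miR499 1 and 2 alone, 5 genes lay below all controls (Hmga1 in addition), beside 34.1% of tested genes (17.9% lay above and 52.0% did not overlap), and the median of the 8 was -0.11. Nothing is read from these counts, since the contrast was used to choose the genes.

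**Figure D2:**
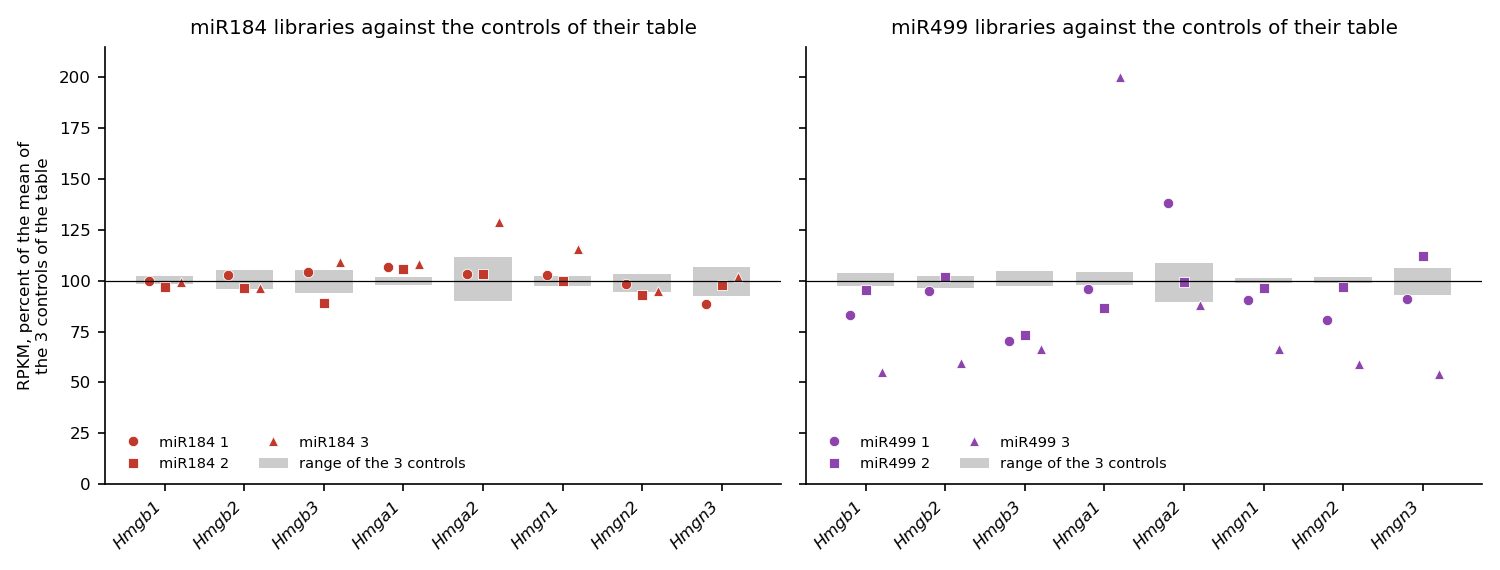
RPKM of each miR184 library (left) and miR499 library (right) as a percent of the mean of the 3 controls of its table (y axis) for the 8 HMG genes (x axis); grey boxes span the 3 controls. With miR499, Hmgb3 lies at 66.4% to 73.1% in all 3 libraries, whereas for Hmgb1, Hmgb2, Hmgn1, Hmgn2 and Hmgn3 the triangle (miR499 3) is lowest and for Hmga1 it is highest.

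Shares within the HMGB family, which do not depend on how a library is scaled, separated the miR499 libraries. Hmgb3 made up 9.88%, 9.39% and 14.0% of the summed RPKM of Hmgb1, Hmgb2 and Hmgb3 in miR499 1 to 3, against 12.5%, 12.4% and 12.1% in controls 4 to 6. Thus the share was below all controls in miR499 1 and 2 and above them in miR499 3. The mean difference was -1.27 percentage points with all libraries and -2.71 without miR499 3. The summed RPKM itself was 1113, 1220 and 745 in miR499 1 to 3, all below the lowest control sum of 1228. In the miR184 table the share of Hmgb3 was 14.2%, 12.97% and 15.3% with miR184, against 14.0%, 14.2% and 13.5% in controls 1 to 3, and the share in miR499 3 lay within these values.

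**Figure D3:**
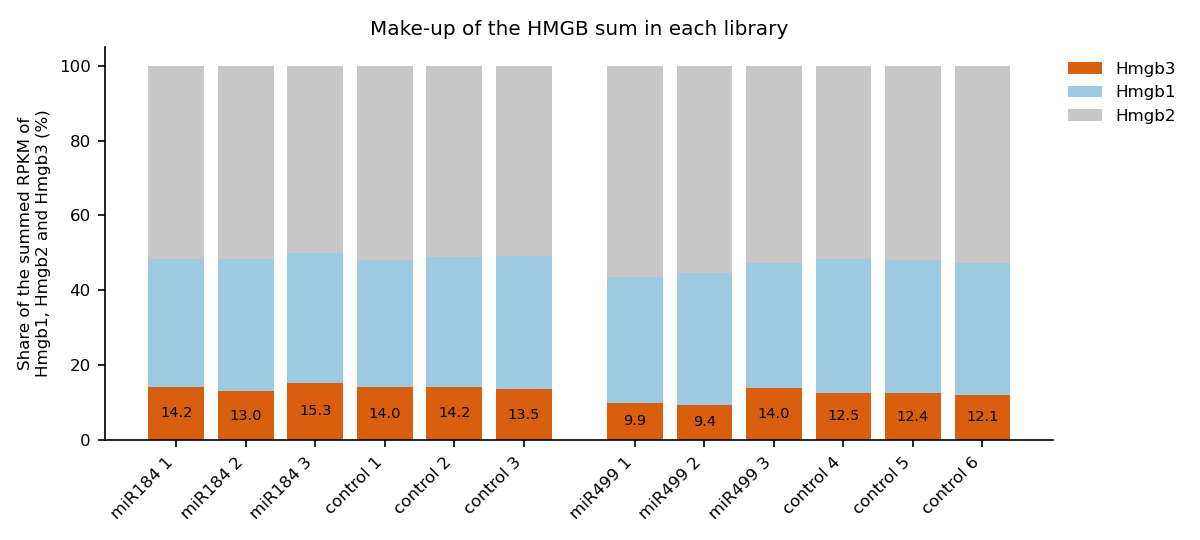
Share of Hmgb3 (orange, with its value), Hmgb1 (blue) and Hmgb2 (grey) in the summed RPKM of the 3 HMGB genes (y axis, percent) in each of the 12 libraries (x axis). Hmgb3 takes 9.88% and 9.39% in miR499 1 and 2, the lowest shares of the 12 libraries, and 14.0% in miR499 3.

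Genes with the pattern most like that of Hmgb3 were sought across the 12 libraries, on log2(RPKM + 1) minus the mean of the controls of the same table. Among 5571 genes with a mean of at least 5 RPKM in both tables, the highest Pearson r belonged to Nifk, a nucleolar protein gene, at 0.977. It was followed by Ech1, which encodes an enzyme of fatty acid oxidation, at 0.970, Umad1 at 0.970, the spliceosome gene Snrnp40 at 0.968 and the splicing factor gene Srsf5 at 0.968. Nifk stood at 76.0, 75.7 and 71.9 RPKM in miR499 1 to 3, against 103, 98.1 and 99.4 in controls 4 to 6. These r values are descriptions without a test, and the points share libraries, tables and controls. Ranked by Spearman rho, the first 5 genes shared 0 with this list. Of the other HMG genes, Hmgn1 had an r of 0.793 to Hmgb3 (rank 580 of 5571), Hmgn2 0.769 (rank 681) and Hmgb1 0.766 (rank 697). Lower still were Hmgb2 at 0.627 (rank 1376), Hmgn3 at 0.497 (rank 1979) and Hmga1 at -0.408 (rank 4602). By Spearman rho the ranks were 50 for Hmgb1, 68 for Hmgn1, 474 for Hmgb2 and 650 for Hmgn2. They were 2792 for Hmgn3 and 2931 for Hmga1.

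With miR184, the comparison not used to choose the genes, no HMG gene passed the test. The share called among all 10372 tested genes was 0% by limma at an adjusted p of 0.05; 475 genes had an unadjusted p under 0.05, and limma voom on recovered reads called 0. Hmga2, at 0.695, 0.695 and 0.867 RPKM with miR184, against 0.751, 0.606 and 0.663 in controls 1 to 3, was below the filter of a mean of 1 RPKM and was not tested. Of the 7 genes tested, 3 were above and 4 below their controls, with a median log2 difference of -0.017, against 0.0022 for all tested genes. Their adjusted p-values in limma ran from 0.827 to 0.978.

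Hmgb3 with miR184 lay on both sides of its controls, at 106, 90.3 and 111 RPKM in miR184 1 to 3, against 107, 102 and 95.5 in controls 1 to 3. The groups overlapped, and the log2 difference was 0.0072 ± 0.08 (SE), with a 95% interval from -0.19 to 0.21 (adjusted p = 0.978, limma). The difference between the miRNAs was not tested. Hmgb1 stood at 253, 246 and 251 RPKM with miR184, against 259.6, 249 and 251 in controls, with an interval from -0.12 to 0.08. Hmgb2 stood at 384, 360.3 and 362 RPKM with miR184, against 394, 369 and 359 in controls, with an interval from -0.15 to 0.11.

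Hmga1 was the only one of the 7 whose groups did not overlap with miR184. It stood at 143, 142 and 145 RPKM in miR184 1 to 3, against 131, 134 and 137 in controls 1 to 3, so every miR184 library lay above every control. The log2 difference was 0.10 ± 0.04 (SE), with a 95% interval from -0.0013 to 0.20, and it did not pass (adjusted p = 0.827, limma; unadjusted p = 0.0524). Groups did not overlap in 11.7% of tested genes, and in 7.30% all miR184 libraries were higher (4.41% lower). A permutation test of 3 against 3 libraries cannot go below an exact p of 0.1. Of the copies of HMG genes in the tables, 16 were at 0 in all 12 libraries, and how reads shared with copies were assigned is not stated.

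The Hmgn genes overlapped between miR184 and control libraries. Hmgn2 stood at 609.6, 574 and 588 RPKM with miR184, against 638, 632 and 584 in controls 1 to 3, a log2 difference of -0.07 ± 0.05 (SE). Hmgn1 stood at 59.2, 57.3 and 66.5 RPKM with miR184, against 57.8, 58.7 and 55.9 in controls, with miR184 3 highest; the difference was 0.08 ± 0.07 and 0.02 ± 0.04 without miR184 3. Hmgn3 stood at 13.9, 15.3 and 15.9 RPKM with miR184, against 14.5, 15.7 and 16.7 in controls. As a share of the HMGN sum, Hmgn1 took 8.67%, 8.86% and 9.92% with miR184, against 8.13%, 8.31% and 8.52% in controls, and these groups did not overlap, with miR184 3 highest. It was 1 of 8 such shares within the families with miR184, and the groups of the other 7 overlapped. The summed level of 8 dendritic cell markers was 426 to 496 RPKM with miR184, against 292 to 374 in controls 1 to 3. Of 6 tested members 5 were higher. Mast cell, basophil and eosinophil markers were higher in 8 of 9 tested members, megakaryocyte markers in 7 of 8 and erythroid markers in 5 of 6. Neutrophil markers were higher in 7 of 11, HSPC markers in 6 of 11 and B lymphoid markers in 2 of 2. Monocyte and macrophage markers were lower in 6 of 8, and T and NK lymphoid and stromal and endothelial markers in 2 of 2 each. In every list other than the dendritic cell list, the summed levels overlapped between miR184 and controls 1 to 3. The part of these markers in the HMG values was not tested.

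**Figure D4:**
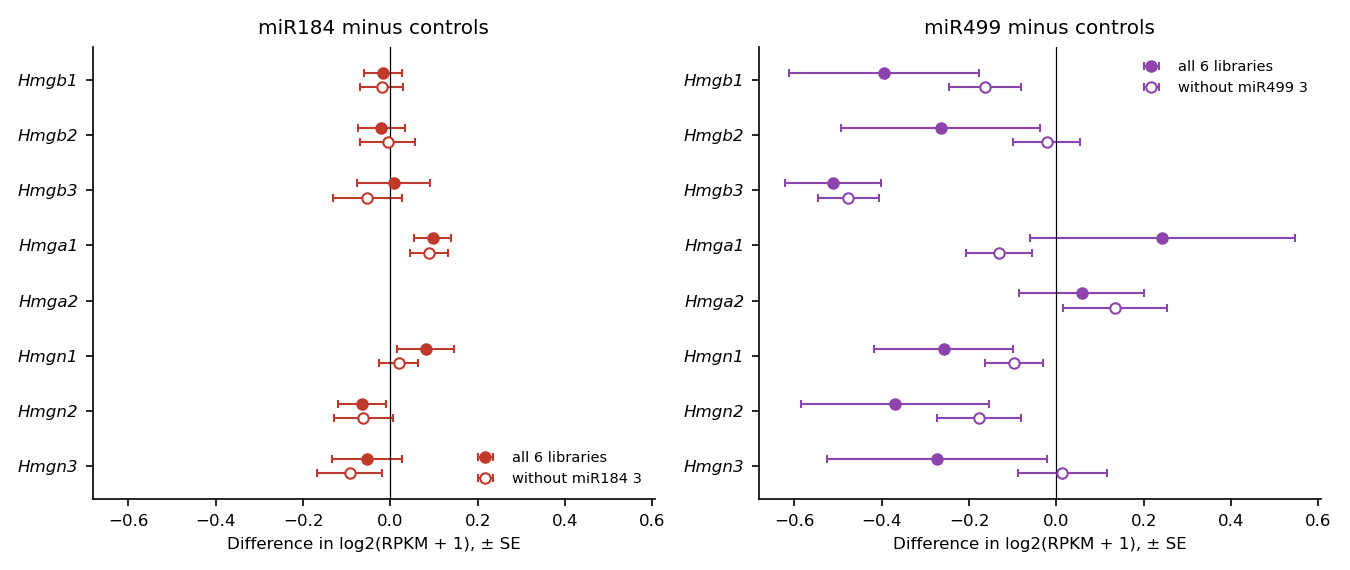
Difference in log2(RPKM + 1) of each HMG gene (rows), miR184 minus controls 1 to 3 (left) and miR499 minus controls 4 to 6 (right), with SE bars; filled points use all 6 libraries and open points leave out miR184 3 or miR499 3. Hmgb3 stays at -0.51 and -0.48 with miR499, Hmga1 changes sign there, and the miR184 differences lie between -0.07 and 0.10 with all libraries; Hmga2 was not tested with miR184.

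Genes that work with HMG proteins were read from lists chosen beside the 8 members. By limma 0 of them passed with either miRNA while all libraries were kept, as did 0 of all tested genes; with miR499 992 genes had an unadjusted p under 0.05, and limma voom called 0. Other genes with an HMG box were higher with miR499 in 12 of 15 tested members (median log2 difference 0.26, all genes -0.0072). Without miR499 3, 9 of 15 were higher (median 0.04, all genes -0.06). The median of all genes varied with abundance and was -0.13 with a filter of 5 RPKM. The lists were not matched for abundance, so nothing is read from these medians. Smarce1, a chromatin remodeller subunit with an HMG box, was lower with miR499. It stood at 14.7, 14.9 and 15.1 RPKM with miR499, against 18.2, 20.5 and 18.3 in controls, and all 3 miR499 values lay below the controls. With miR184, 7 of 16 were higher (median -0.025), and Cic, a transcriptional repressor gene, had the smallest p of the list, with every miR184 value above the controls of 1.43 to 1.64 RPKM (log2 difference 0.25 ± 0.10, adjusted p = 0.827, limma).

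Without miR499 3, 17.1% of tested genes passed by limma, 3.47% higher and 13.7% lower. That fit was chosen after seeing the data and holds only miR499 1 and 2. Its counts depended on scaling: 341 higher and 1340 lower became 466 and 910 with median-ratio scaling. The list calls below are without that scaling and are set beside the shares above as descriptions. Hbp1 and Smarce1, both HMG-box genes, passed as lower, 2 of 15, at log2 differences of -0.48 ± 0.09 and -0.34 ± 0.08 (adjusted p = 0.0125 and 0.0304, limma). Hbp1, a repressor of cell cycle genes, stood at 12.8 RPKM in the library left out, above its controls of 10.1 to 10.7. Of 7 tested linker histone genes, whose proteins HMGN proteins counteract, Hist1h1e passed as higher, at 30.5 and 31.4 RPKM in miR499 1 and 2, against 20.4 to 24.0 in controls, while miR499 3 was at 16.6. Of 12 genes of the SET complex and acidic histone chaperones, Npm3 passed as higher, at 20.2, 16.0 and 22.2 RPKM in miR499 1 to 3, against 11.6 to 12.4 in controls. Of 8 genes of HMGB1 receptors and their signalling, Myd88 and Havcr2 passed as lower. In miR499 3 Havcr2 was at 5.21 RPKM, above its controls of 3.20 to 4.14. Myd88 was at 21.87 RPKM there, within its controls of 21.83 to 22.83.

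Genes of dividing cells were listed because Hmgb2 is known to be high in such cells. With miR499 1 and 2 alone, a choice made after seeing the data, 6 of 16 tested members passed by limma. All 6 were lower with miR499, beside 13.7% of all tested genes. They were Aurkb, Ccnb1, Ccnb2, Mcm5, Rrm1 and Rrm2, among them the mitotic kinase gene Aurkb at 39.2 and 34.7 RPKM in miR499 1 and 2, against 53.6 to 57.9 in controls 4 to 6. In miR499 3 Aurkb was at 56.6, and the replication genes Mcm5 and Rrm1 were at 95.1 and 74.4 RPKM, above their controls of 55.7 to 59.9 and 50.5 to 54.7. Not all of the list pointed down: 2 of 16 were higher with miR499 without miR499 3, and 6 of 16 with all libraries kept. Mki67, a marker of dividing cells, was at 17.4, 11.3 and 16.3 RPKM in miR499 1 to 3, against 8.69 to 11.3 in controls 4 to 6, with every miR499 value above every control, by a small margin in miR499 2. It did not pass with all libraries or without miR499 3 (adjusted p = 0.491 and 0.0739, limma). Summed over the 16 genes, the level was 1042 to 1164 RPKM with miR499 and 1219.6 to 1237 in controls. With miR184, 12 of 16 were lower (median -0.03, all genes 0.0022), and 0 passed by limma. Ccnb1, a mitotic cyclin gene with the smallest p of the list there, stood at 76.6, 72.1 and 73.3 RPKM with miR184, against 78.6 to 82.2 in controls 1 to 3 (adjusted p = 0.827, limma). Let-7 axis genes around Hmga2 were higher with miR499 in 5 of 5 tested members (median 0.35, all genes -0.0072) and in 4 of 5 without miR499 3. The list was low, at a summed 12.2 to 23.7 RPKM with miR499 and 10.3 to 11.4 in controls 4 to 6. It was not matched for abundance. With miR184 3 of 5 were higher. Zcchc6, a uridylyltransferase gene that acts on let-7 precursors, had the smallest p with miR499, at 5.33, 5.03 and 8.82 RPKM, against 3.36 to 4.13 in controls 4 to 6 (adjusted p = 0.491, limma). Among linker histone genes with miR184, Hist1h1e had the smallest p, at 24.3, 13.4 and 16.3 RPKM, against 22.8 to 33.6 in controls 1 to 3, with overlapping groups (adjusted p = 0.793, limma).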

How the data were processed

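RNA came from sorted bone marrow HSPC (PicoPure extraction, Illumina libraries), per the labels' protocols. The authors deposited 2 tables of RPKM values, per the file headers, in build mm10 per the submitters' processing notes; the sources used here name no aligner, counting tool or annotation and do not state strand. Of per-sample columns, 0 were left unused. Whole reads were recovered from the RPKM steps: 100% of 197027 values above 0 were whole within 0.01 reads. The HMG genes other than Hmga2 held 1117 to 167288 reads per library, and Hmga2 held 185 to 473. Counting error alone came to 0.244% to 2.99% of a value for those 7 and 4.60% to 7.35% for Hmga2.

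Each miRNA was tested against its table's controls with limma 3.58.1 (R 4.3.3) with an intensity trend, on log2(RPKM + 1), a scale that understates changes of low genes. Genes with a mean of at least 1 RPKM over the 6 libraries entered, and the threshold was a Benjamini-Hochberg adjusted p of 0.05, two-sided. The test was first run on simulated data. Gene positions and 3′ UTRs were taken from GENCODE M21 (GRCm38, mm10); its exon length equalled the length recovered from the RPKM steps for 14856 of 21134 genes. The 8 members and the other lists were chosen with earlier results of these data known. The rule for named genes took all 8 members, the 5 genes most like Hmgb3 and, from each list, up to 3 genes with the smallest p in each comparison, of which a part is printed. Hmgn5, Kit, Cd34, Mpo, Rn18s-rs5, AI413582 and genes that passed without miR499 3 were added after their values were seen. Values without the third library of a treated group were also chosen after seeing the data. Alternatives covered scaling, pseudocount, filter, limma voom, a replicate block and each library left out. Other steps ran in Python 3.11.15 (numpy 2.4.6; pandas 2.3.3), and figures in matplotlib 3.10.9. One result on a copy of a member is not reported here.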

Additional observations from a re-analysis of the deposited data

How the results depend on the processing

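The count of all genes that passed was 0 with miR184 and 0 with miR499. It stayed at 0 with median-ratio scaling, a pseudocount of 0.1, no filter, a filter of 5 RPKM and limma voom on recovered reads. Leaving out 1 library in turn gave 0 to 2 genes with miR184 (2 without control 1) and 0 to 1681 with miR499 (1681 without miR499 3, 0 without any other). Median-ratio scaling without miR499 3 gave 1376 genes, 466 higher and 910 lower, against 341 higher and 1340 lower without that scaling. With a replicate block by title number, 2 genes passed with miR184. The deviations of same-numbered libraries correlated at 0.062, -0.048 and -0.028, so the numbers are not taken to pair the samples. Replicate numbers in the titles and table headers differ from those in the descriptions for some libraries, so neither set is settled. With miR499 the titles share no numbers; a replicate block by the numbers 1 and 4 in the descriptions gave 426 genes, 126 higher and 300 lower, where miR499 3 and control 6 carry no weight. Those pairs correlated at 0.204 and -0.352. The sign of Hmgb3 with miR184 turned with median-ratio scaling without miR184 3, at -0.0635, and its range with 1 library left out was -0.0531 to 0.0933. That range was -0.0289 to 0.0012 for Hmgb1 and -0.0506 to 0.0179 for Hmgb2, and no HMG gene passed with miR184 under any alternative run. With miR499, the Hmgb3 difference was -0.58 with median-ratio scaling and -0.44 with that scaling and without miR499 3. Counting 8mer and whole-seed 7mer sites only, 1 of the 8 genes held a miR-499-5p match. The causes of these changes were not tested.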
